A study of Mus musculus with 1016 samples.

Results

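Of 46173 bins of 50 kb that had a replication timing (RT) rank at all 7 stages of mouse preimplantation development, 5008 bins (10.8%, 250.4 Mb) were late at every stage from the zygote to the inner cell mass (ICM). The bins were selected on measured values. In each stage, the share of cells in which a bin was already replicated was taken over cells in S phase, bins were ranked by that share from 0 (latest) to 1 (earliest), and a bin was a member when its rank was 0.3 or less in each of the 7 stage tables (zygote, ICM, morula, and 2-, 4-, 8- and 16-cell embryos). Ranks and shares in these 7 tables are therefore descriptions and carry no test. The mirrored set, 4280 bins with a rank of 0.7 or more at all 7 stages, serves below as the early counterpart.

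The values came from single-cell Repli-seq, in which the DNA of a single cell is sequenced and replicated DNA gives more reads than DNA not yet replicated. Binary states, replicated or not replicated, were analysed for 714 cells whose replication score, the percentage of a cell's bins with a state that were replicated, lay between 10 and 90%. Among natural stages, 66 cells were zygotes and 63 came from 2-cell, 55 from 4-cell, 56 from 8-cell and 40 from 16-cell embryos, 47 from morulae and 70 from the ICM. All were untreated and had a (C57BL/6J x CBA) mother and a DBA/2J father, and they were collected from 20 to 26 h (zygotes) up to 96 to 104 h (ICM) after hCG injection. Between these, collection was at 32 to 40 h (2-cell), 50 to 56 h (4-cell), 66 to 72 h (8-cell), 77 to 80 h (16-cell) and 90 to 96 h (morula). A further 7 tables, which the selection did not use, held 57 zygotes from in vitro fertilization (IVF; same cross, 5.5 h to 10 h 30 min after insemination), 57 parthenotes ((C57BL/6J x CBA)F1 oocytes activated with 10 mM strontium for 2 h, 5.5 to 12 h after activation), 21 maternal pronuclei (labelled (C57BL/6J x CBA)F1), 17 paternal pronuclei (labelled DBA/2J), and 2-cell embryos of the natural cross that had been given 0.1 mg/mL α-amanitin (42 cells), 100 µM DRB (67 cells), both from 17 h after hCG, or Kdm5b mRNA at 2 µg/µL, injected at 18 h (56 cells). Pronuclei were collected at 21 to 25 h, and treated 2-cell embryos at 34 to 39 h (α-amanitin) or 34 to 40 h (DRB and Kdm5b). α-Amanitin and DRB block transcription by RNA polymerase II, and KDM5B removes methyl groups from lysine 4 of histone H3. Parthenotes have no paternal genome, and each pronucleus holds a single parental genome, some of them as pairs from the same zygote. The labels name no animal or culture, so that every group counts as 1 sample, no difference between groups was tested, and intervals cover the counting of cells only. No p-value is therefore given for any difference below.

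In mammalian cells, the order in which the genome is copied follows large domains. Late-replicating DNA is typically AT-rich, poor in genes, compact and placed at the nuclear lamina or around nucleoli, and in differentiated cells large clusters of tissue-specific gene families, such as those of odorant receptors, often lie in it. In the preimplantation embryo the RT programme takes shape over the cleavage divisions, so that bins that hold a late position from the zygote onward are a reference for what does not move. Inhibiting transcription from the zygote stage, with RT read at the 2-cell stage, asks whether such positions depend on genome activation. Injecting Kdm5b mRNA into zygotes asks whether late positions are linked to inherited histone methylation. Parthenotes and pronuclei ask whether late positions differ between the parental genomes.

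To show the kind of sequence concerned, the middle 200 bases of the central bin are given below for the longest 3 runs of adjacent members, followed by the longest 3 runs of bins early at all stages (GRCm38.p6 reference of RefSeq, C57BL/6J strain). Capitals mark CpG dinucleotides, the sites of DNA methylation.
late run of 5.00 Mb, chr14:90174901-90175100, + strand: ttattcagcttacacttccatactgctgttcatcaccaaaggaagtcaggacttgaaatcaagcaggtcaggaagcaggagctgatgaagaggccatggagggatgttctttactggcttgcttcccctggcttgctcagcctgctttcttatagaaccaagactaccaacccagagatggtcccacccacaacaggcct
late run of 2.95 Mb, chr14:95524901-95525100, + strand: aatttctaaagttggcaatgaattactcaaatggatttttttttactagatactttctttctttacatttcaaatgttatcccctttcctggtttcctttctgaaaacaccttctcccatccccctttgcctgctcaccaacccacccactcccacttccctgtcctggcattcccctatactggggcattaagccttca
late run of 2.80 Mb, chr3:48374901-48375100, + strand: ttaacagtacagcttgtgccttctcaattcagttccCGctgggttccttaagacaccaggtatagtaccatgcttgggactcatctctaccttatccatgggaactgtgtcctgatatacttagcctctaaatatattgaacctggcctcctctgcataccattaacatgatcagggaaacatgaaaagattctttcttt
early run of 3.4 Mb, chr2:72324901-72325100, + strand: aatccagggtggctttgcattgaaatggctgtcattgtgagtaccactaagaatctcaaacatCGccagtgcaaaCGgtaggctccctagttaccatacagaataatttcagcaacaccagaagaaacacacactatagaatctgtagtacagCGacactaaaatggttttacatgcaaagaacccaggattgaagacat
early run of 2.70 Mb, chr9:65724901-65725100, + strand: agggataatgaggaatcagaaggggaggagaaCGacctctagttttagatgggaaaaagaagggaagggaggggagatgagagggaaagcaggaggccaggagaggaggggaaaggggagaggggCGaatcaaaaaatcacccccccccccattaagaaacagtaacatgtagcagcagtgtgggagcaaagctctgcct
early run of 2.3 Mb, chr10:43174901-43175100, + strand: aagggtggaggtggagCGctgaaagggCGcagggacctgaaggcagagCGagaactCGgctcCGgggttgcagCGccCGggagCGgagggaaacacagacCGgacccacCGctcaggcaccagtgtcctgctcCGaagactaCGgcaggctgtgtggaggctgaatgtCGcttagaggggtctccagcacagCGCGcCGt
The windows of members held 0, 0 and 1 CpG and lay in no protein-coding gene, and 100%, 87.5% and 7% of their bases were marked as repeats in the reference. The windows from early runs held 3, 2 and 16 CpG and lay in Map3k20, Zfp609 and 9030612E09Rik, with repeats over 0%, 52% and 0% of the bases. GC content of these short windows overlapped between both sets (42 to 49.5% against 41.5 to 66%). Over the whole central bins it did not, with 34.2 to 36.7% in the late runs and 42.1 to 43.1% in the early ones.

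Cells of certain collection times stood apart from the rest of their stage. In 8-cell embryos collected at 72 h (11 cells) members were replicated in a median of 36.4% of cells against 45.5% for all bins, and in 16-cell embryos collected at 77 h (9 cells) in 22.2% against 33.3%. At 69 h and 80 h the same values were 22.2% against 61.1% and 12.9% against 71%. Selection without these 20 cells gave 5028 members, of which 4941 were among the 5008, so that 98.7% of the members stayed. Among parthenotes, 8 cells of 10 h 30 min stood apart in the same way, with 30.3% of members late against 29.4% of all bins, and their values are given apart below. They were not the only such cells. Parthenotes of 6.5 h (6 cells) had 31.6% of members late against 26.8% of all bins. In IVF zygotes of 5.5 h (5 cells) the values were 39.2% and 32.9%.

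Over all members, bases and genes followed the same pattern. The median GC content of members was 37.4% (quartiles 36.5 to 38.5%), against 41.4% over all ranked bins and 43.7% in bins early at all stages, and 92.2% of members but 37.4% of all ranked bins had a GC content under 40% (18 members had too many unknown bases for a value). CpG dinucleotides numbered 4.82 per kb in members at the median, 7.82 in all bins and 10.4 in early bins. Repeats covered 45.1% of a member at the median (quartiles 38.4 to 52.7%), 30.9% of all bins and 29.1% of early bins. Of the members, 75.1% overlapped no protein-coding gene, compared with 41.6% of all ranked bins and 15.1% of early bins, and members held 5.07 gene starts per Mb where all ranked bins held 8.58 and early bins 13.1. By GC content, members made up 43.7% of the 4300 bins under 37% GC, 26% of bins from 37 to 39%, 8.63% of bins from 39 to 41%, 1.56% of bins from 41 to 43% and 0.278% of bins at 43% or more. In numbers, 1877 of the 4300 bins under 37% GC were members.

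Members lay in long contiguous stretches. They formed 426 runs with a median length of 400 kb (quartiles 100 to 850 kb), of which 70 were single bins, and the 179 runs of 500 kb or more held 4068 members (81.2%). Bins early at all stages formed 483 runs with a median of 250 kb, a longest run of 3.4 Mb and 74.6% of bins in runs of 500 kb or more. Because the states had been smoothed along the chromosome before deposition, neighbouring bins share values, and the part of this in the run lengths was not tested. The longest run, 5.00 Mb on chromosome 14 (chr14:87700001-92700000), held a single protein-coding gene, Pcdh20, a protocadherin of cell adhesion. It was followed by 2.95 Mb at chr14:94050001-97000000 with Klhl1, a kelch protein of neurons, and 4921530L21Rik, and by 2.80 Mb at chr3:47000001-49800000 with Pcdh18. The runs at chr1:100650001-103400000 (2.75 Mb), chr3:43000001-45350000 (2.35 Mb) and chr6:9350001-11650000 (2.3 Mb) held no protein-coding gene at all, and that at chr1:111100001-113700000 (2.60 Mb) only Dsel. The other runs among the 10 longest were gene-richer. The run at chr8:37100001-39650000 (2.55 Mb) held Sgcz, Tusc3 and Msr1, that at chr17:39800001-42250000 (2.45 Mb) 18 genes with Crisp2, Rhag and Mut the longest, and that at chr7:84900001-87250000 (2.35 Mb) 34 genes, led in length by Nox4, Vmn2r71 and Folh1.

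**Figure D1:**
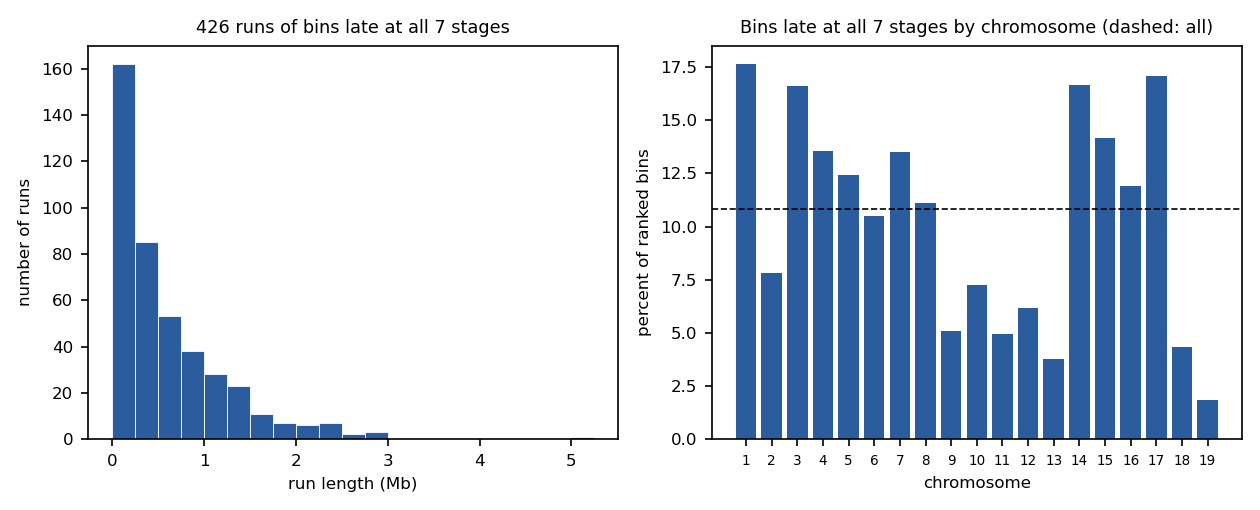
Left, number of runs of adjacent member bins by run length in Mb (classes of 0.25 Mb), with most of the 426 runs under 1 Mb and a single run of 5.00 Mb. Right, percent of the ranked bins of each chromosome that were members, from 1.82% on chromosome 19 to 17.6% on chromosome 1, with the genome-wide 10.8% dashed.

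The chromosomes contributed unequally. Members made up 17.6% of the ranked bins of chromosome 1, 17.1% of chromosome 17, 16.7% of chromosome 14 and 16.6% of chromosome 3, but 1.82% of chromosome 19, 3.76% of chromosome 13, 4.3% of chromosome 18 and 4.96% of chromosome 11. Chromosome 17 also had the fewest bins that were early at all stages (0.844%), whereas chromosome 14 was high in both (12.5% early at all stages). Along the chromosome, members made up 6.71% of bins in the first 10 Mb from the centromeric end, 10.2% in the last 5 Mb and 11.1% in between. Divided into 5 equal parts from the centromeric end, chromosomes held 12.5%, 11.1%, 15.5%, 9.5% and 5.94% members, so that the central part was highest and the telomeric part lowest.

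At the 7 stages that chose them, members were replicated in a median of 28.8% of zygotes, 30.2% of 2-cell, 18.2% of 4-cell, 21.4% of 8-cell, 17.5% of 16-cell, 13.6% of morula and 29% of ICM cells. Over all ranked bins the medians were 57.6%, 50.8%, 36.4%, 51.8%, 61.5%, 66% and 58.6% in the same order. The gap between the medians of members and all bins was therefore smallest in 4-cell (18.2 percentage points) and 2-cell embryos (20.6) and largest in morula cells (52.3) and 16-cell embryos (44). These shares depend on where in S phase the cells were sampled. The median replication score was lowest in 4-cell (40.6%) and highest in morula cells (64.9%), and its part in the gaps was not tested. Lateness was a matter of degree over cells, since few members were replicated in no cell. In the 66 zygotes this held for 10 of the 5008 members (0.2%, against 0.0217% of all ranked bins), which allows a share of up to 4.55%. In the 47 morula cells it held for 96 members (1.92%, against 0.232% of all ranked bins, up to 6.38%). At the other stages it held for 0 to 10 members and 0 to 0.0238% of all ranked bins. The stage at which a member had its highest rank was the 2-cell stage for 1251 members (25.0%) and the 4-cell stage for 1032 (20.6%), and the 8-cell stage for the fewest, 388 (7.75%). The last 3 bins to qualify, chr14:40150001-40200000, chr16:89300001-89350000 and chr16:89350001-89400000, had a highest rank of 0.299, at the 8-cell stage. The nearest 3 that did not, chr4:21400001-21450000, chr4:112000001-112050000 and chr4:114300001-114350000, had 0.303, at the 16-cell stage. Within 0.02 of the limit lay 648 members and 446 other bins.

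Each stage was then read with members chosen on the other 6, so that the stage itself had no part in the choice. Of 5214 bins late at the other 6 stages, 96.0% were also late in zygotes, where 30.3% of all ranked bins were. The share was 97.9% of 5116 bins for the 8-cell stage (31% of all bins), 96.9% of 5166 bins for the 16-cell stage (29.9%), 96.9% of 5168 for the morula (30%), 94% of 5330 for the ICM (29.8%) and 91.4% of 5482 for the 4-cell stage (30.7%). The 2-cell stage was lowest, with 78% of 6419 bins (29% of all bins), and 348 of these bins (5.42%) had a rank above 0.5 there, where 48.7% of all ranked bins had such a rank. At the other 6 stages, 0 to 55 of the bins chosen in this way did (0 to 1.00%), against 48.5 to 51.3% of all ranked bins.

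In the 7 tables that took no part in the choice, most members were again late. Rank 0.3 or less was found for 75.8% of members in IVF zygotes (29.6% of all ranked bins), 69.3% in parthenotes (30.1%), 77.1% in maternal pronuclei (32.7%), 83.5% in paternal pronuclei (29.4%), 71.2% in α-amanitin-treated 2-cell embryos (31.7%), 92.5% in DRB-treated (28.8%) and 87.9% in Kdm5b-injected 2-cell embryos (30.4%). Members were replicated in 46.4% of IVF zygotes, 44.6% of parthenotes, 47.6% of maternal and 35.3% of paternal pronuclei, as medians. In cells from 2-cell embryos with α-amanitin, DRB and Kdm5b the medians were 40.5%, 32.8% and 35.7%. Against the medians of all ranked bins these values were lower by 18.5, 11.5, 14.3, 23.5, 11.9, 29.9 and 19.6 percentage points. The smallest gaps were those of parthenotes and α-amanitin-treated embryos. With only cells passed by the study's quality table, where listed, the order of the percent late changed. Members were then late in 74.8% of cases in parthenotes, 69.8% with α-amanitin and 68.3% in maternal pronuclei, the lowest value. Natural zygotes, the untreated counterpart of the IVF, parthenote and pronucleus tables, had a gap of 28.8 points, and untreated 2-cell embryos of 20.6 points, both in tables that the selection used. In IVF zygotes 39.3% of members, and with DRB 7.76%, were replicated in 50% or more of cells, against 79.1% and 71.4% of all ranked bins. Within single collection hours of 5 or more cells, the percent of members late ranged from 39.2 to 91.3% in IVF zygotes and from 30.3 to 78.2% in parthenotes, and the part of collection time in these values was not tested. Ranks above 0.5 were rarer among members than among all ranked bins, of which 47.6 to 54.9% had such a rank in these tables. They were found for 594 members (11.9%) in parthenotes, 618 (12.3%) in maternal pronuclei, 569 (11.4%) with α-amanitin, 348 (6.95%) in IVF zygotes, 170 (3.4%) in paternal pronuclei, 76 (1.52%) with Kdm5b and 47 (0.939%) with DRB. The maternal and paternal pronuclei tables rest on the fewest cells, so that 1 cell is worth 4.76 and 5.88 percentage points there. Bins early at all stages kept an early rank (0.7 or more) in 69.2 to 89.1% of cases over the same 7 tables, lowest in parthenotes and highest with Kdm5b, where 29.2 to 33.2% of all ranked bins had one.

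**Figure D2:**
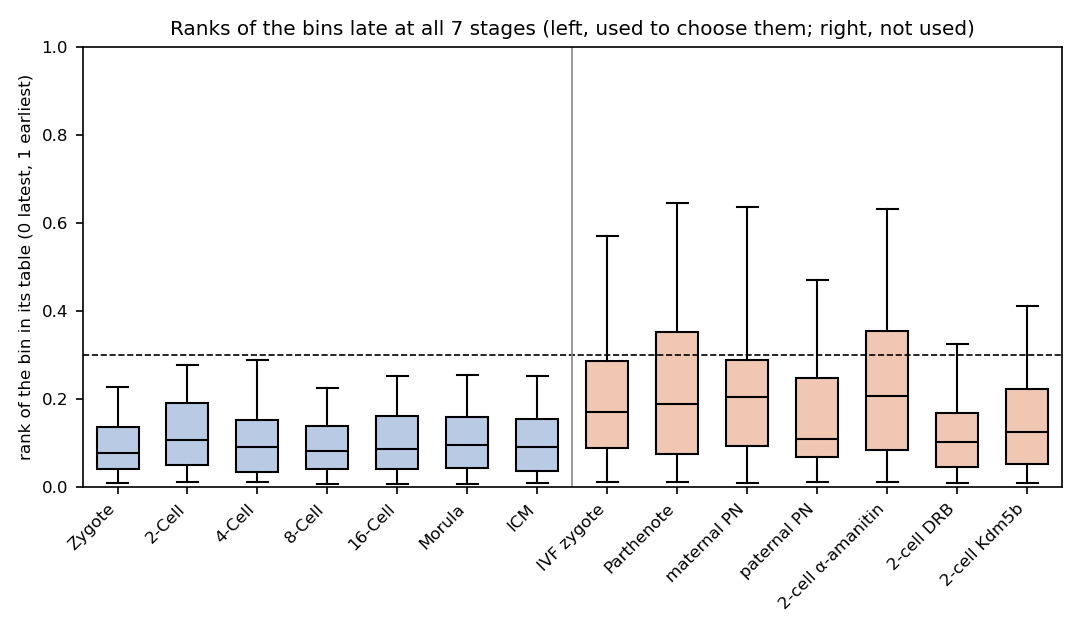
Rank of the member bins in each of the 14 tables (y axis, 0 latest to 1 earliest). Boxes give quartiles and median, whiskers the 5th and 95th percentiles, and the dashed line the limit of 0.3. The 7 tables on the left chose the bins, and among the 7 on the right the medians lie between 0.101 (DRB) and 0.206 (α-amanitin).

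Taken over tables, 2125 of 4999 members with a value in all 7 other tables (42.5%) were late in every one of them, where 9.47% of all ranked bins were. A total of 3794 members (75.9%) were late in 5 or more, against 20.9% of all bins, and 19 members (0.38%) were late in none, against 39.3% of all bins. Among the 179 runs of 500 kb or more, 172 had a mean rank of 0.3 or less with DRB, 162 with Kdm5b, 157 in paternal and 134 in maternal pronuclei, 144 in IVF zygotes, 128 in parthenotes and 122 with α-amanitin, and 83 had it in all 7.

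Members with chemosensory genes were late most often in the 7 other tables, and already ranked lowest at the 7 stages that chose them. The median of the mean rank over the stages was 0.0589 for them, 0.126 for members with other genes and 0.105 for members without a gene. The part of this distance from the limit in the values below was not tested. The 443 members (8.85%) that overlapped a gene of an olfactory, vomeronasal, bitter taste or Mas-related receptor were late in 95.7 to 100% of cases in each of the 7 other tables, and 401 of the 441 with a value in every table (90.9%) were late in all 7. Counted in the same way, members with other protein-coding genes only (803 bins) were late in all 7 tables in 46.9% of cases and members without a gene (3762 bins) in 35.9%. In DRB-treated embryos the median share of cells with the bin replicated was 13.4% for chemosensory members, 32.8% for members with other genes and 34.3% for members with none. Among natural stages the same split held in zygotes (18.2%, 30.3% and 28.8%) and 2-cell embryos (17.5%, 30.2% and 31.7%), whereas in morula cells members without a gene were the latest (17.0%, 19.1% and 12.8%). Repeat content was 48.4% in chemosensory members and 45.7% in members without a gene, and the part of repeats in these values was not tested. By run length, 27.8% of members in runs under 500 kb, 43.9% in runs from 500 kb to under 2 Mb and 52.6% in runs of 2 Mb or more were late in all 7 other tables. Their median mean ranks at the stages fell in the same order (0.146, 0.102 and 0.0695), and the part of this was not tested.

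Protein-coding genes were assigned to the members when more than 50% of their ranked bins were members, which held for 1251 of 19840 genes (6.31%). These genes were short, with a median of 6.43 kb against 18.3 kb over all measured genes and 27.1 kb for genes in bins early at all stages. Olfactory receptor genes, which encode the odorant receptors of the nose, made up the bulk: 646 of 1112 measured genes (58.1%) lay in members and 0 in bins early at all stages. By chromosome, members held 220 of 279 genes (78.9%) on chromosome 2, 159 of 244 (65.2%) on chromosome 7 and 83 of 132 (62.9%) on chromosome 9, but only 16 of 82 (19.5%) on chromosome 11, 12 of 53 (22.6%) on chromosome 17 and none of the 28 and 24 on chromosomes 6 and 4. Bitter taste receptors had 24 of 35 genes in members, all on chromosome 6, Mas-related G protein receptors, which sense itch and pain stimuli, 13 of 20, and vomeronasal receptors, which detect pheromones, 86 of 201, where 201 of 327 vomeronasal genes lay in ranked bins. Among the genes of defence and drug metabolism, 21 of 48 C-type lectin and killer cell receptor genes (43.8%), 22 of 57 cytochrome P450 genes of families 2, 3 and 4 (38.6%) and 9 of 40 serpins (22.5%) lay in members. Of the other lists, protocadherins outside the clusters had 2 of 10, cadherins 3 of 23, keratin-associated proteins 7 of 57, long neuronal genes 4 of 48, contactins and contactin-associated proteins 1 of 13 (Cntnap5c), zinc finger (Zfp) genes 20 of 351, defensins 2 of 41 and potassium channels 1 of 92. No gene of the lists of ribosomal proteins (76), histones (80), Hox genes (39), proteasome subunits (39), housekeeping (30), pluripotency (22), trophectoderm (18) or replication factor genes (28) lay in members, nor any keratin (53), clustered protocadherin (57) or glutamate receptor gene (26). Members of a family lie side by side and share bins, so that these counts are not independent genes.

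**Figure D3:**
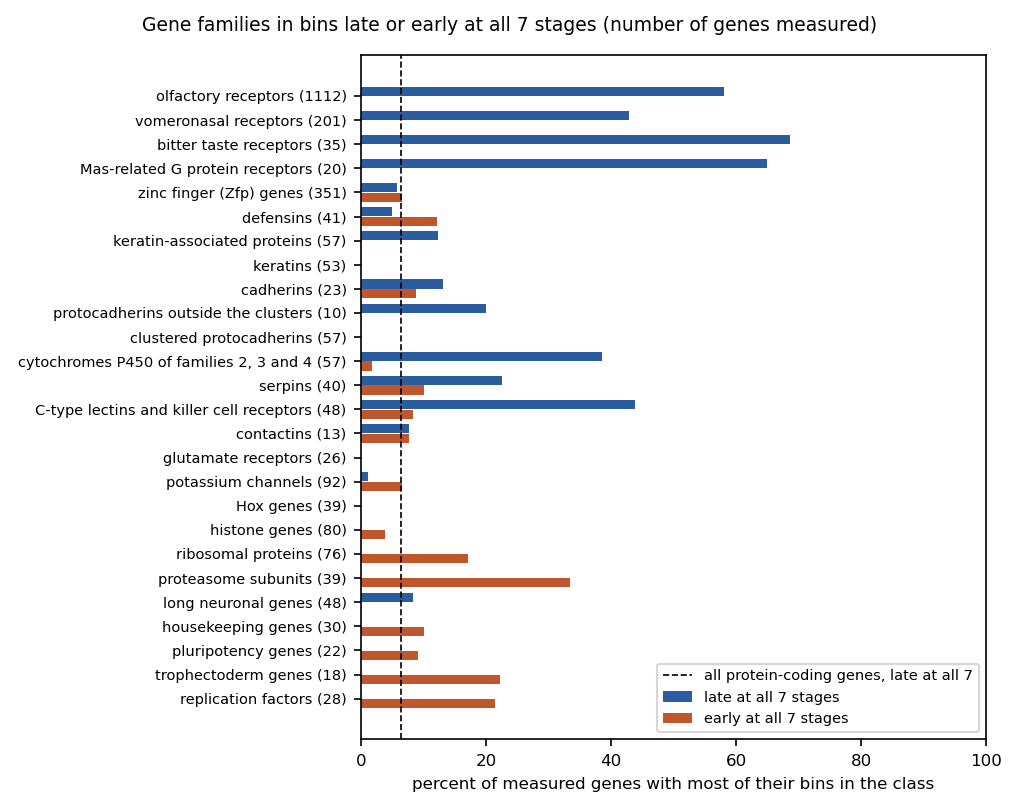
Percent of the measured genes of each list (number in brackets) with most of their bins late (blue) or early (orange) at all 7 stages. The dashed line marks the 6.31% of all protein-coding genes late at all stages. Olfactory, vomeronasal, bitter taste and Mas-related receptor genes reach 42.8 to 68.6% late and 0% early.

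Single genes show the levels behind these counts. Tas2r105, a bitter taste receptor (chr6:131686532-131687495), was replicated in 7.58% of zygotes, 6.35% of 2-cell, 7.27% of 4-cell, 7.14% of 8-cell, 15% of 16-cell, 8.51% of morula and 14.3% of ICM cells. In the tables not used it had 14% in IVF zygotes, 16.1% in parthenotes, 14.3% and 11.8% in maternal and paternal pronuclei, and 4.76%, 5.97% and 7.14% with α-amanitin, DRB and Kdm5b. It was late in every group, with no share above 16.1%. Tas2r108, another bitter taste receptor of chromosome 6 (chr6:40493529-40494541), was no member, with 38.1% of 2-cell to 78.6% of ICM cells. Mrgpra3, an itch receptor of sensory neurons (chr7:47588950-47601372), lay at 0 to 10.0% over the 7 stages and at 0 to 14.3% in the other tables. Cyp4a10 and Cyp4a14, fatty acid hydroxylases of chromosome 4, lie in neighbouring bins, and Cyp4a10 was replicated in 4.55% of zygotes, 4.76% of 2-cell, 9.09% of 4-cell, 10.7% of 8-cell, 12.8% of 16-cell, 19.1% of morula and 11.6% of ICM cells, and in 0 of 17 paternal pronuclei (which allows up to 17.6%) and 0 of 42 α-amanitin-treated cells (up to 7.14%). Olfr73 on chromosome 2, the receptor for eugenol, ranged from 14.3 to 27.1% over the stages and from 5.88 to 23.6% elsewhere. Klrk1, the activating receptor NKG2D of natural killer cells (chr6:129610323-129623864), had 16.4 to 31.4% over the stages and 19 to 41.2% elsewhere.

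The longest genes with every bin a member had higher shares. Sgcz, which encodes ζ-sarcoglycan of the muscle membrane complex (chr8:37522298-38661508, 24 bins), was replicated in 31.8% of zygotes, 29.2% of 2-cell, 9.92% of 4-cell, 26.4% of 8-cell, 18.9% of 16-cell, 8.51% of morula and 24.3% of ICM cells. Outside the natural stages it stood at 40.1% in IVF zygotes, 50.7% in parthenotes, 42.3% and 47.3% in maternal and paternal pronuclei, and 44%, 37.3% and 31.4% with α-amanitin, DRB and Kdm5b, and its mean rank was above 0.3 in parthenotes alone (0.33). Cntnap5c, a contactin-associated protein (chr17:57769570-58410355, 14 bins), had mean ranks of 0.07 to 0.21 over the stages but 0.33 in IVF zygotes, 0.42 in parthenotes, 0.49 in maternal and 0.42 in paternal pronuclei. Klhl1 (chr14:96102736-96519102), Spock3, a testican of the extracellular matrix (chr8:62951009-63357103), and Itgbl1 (chr14:123659971-123975618) completed the longest 5. Klhl1 had a mean rank of 0.09 with DRB, 0.11 with Kdm5b and 0.19 with α-amanitin. Spock3 reached a mean rank of 0.58 in parthenotes and was at 0.18 or less in the other 6 tables, and Itgbl1 reached 0.43 in maternal pronuclei and was at 0.17 or less in the other 6. Among long neuronal genes that were members in the majority of bins, Erbb4, a neuregulin receptor, had 13 of 23 bins in members, Cdh12 14 of 24 and Cdh18 15 of 20, the last 2 being cadherins on chromosome 15. Cdh12 was replicated in 68.9% of IVF zygotes and 65.7% of maternal pronuclei but 36.8% of paternal pronuclei.

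The latest 5 members by mean rank over the stages were neighbours, at chr17:39800001-40050000, at the start of the run with Crisp2 and Rhag. The single protein-coding gene in them was Esp38, a peptide of the exocrine gland-secreting family. The bin chr17:39850001-39900000 was replicated in 0 of 66 zygotes and 0 of 47 morula cells, in 2 cells of 2-cell embryos (3.23%, exact 95% interval 0.393 to 11.2%), 4 of 4-cell embryos (7.27%, 2.02 to 17.6%), 1 of 8-cell embryos (1.82%, 0.0460 to 9.72%), 1 of 16-cell embryos (2.50%, 0.0633 to 13.2%) and 3 ICM cells (4.29%, 0.893 to 12%). In the other tables it was replicated in 3 IVF zygotes (5.26%), 3 parthenotes (5.36%), 1 maternal pronucleus (4.76%) and 3 cells with Kdm5b (5.36%), and in no paternal pronucleus and no cell with α-amanitin or DRB. The bin was chosen for its low ranks at these stages, so that its shares there are a description. Because the states carry no read counts, an effect of read mapping or copy number on bins with shares near 0 was not tested. This holds for the gene clusters named above and below as well.

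Runs differed in their ranks in the 7 other tables. The runs named here were picked as extremes in those tables, and their low ranks at the stages follow from the selection. Contrasts between the stages and the other tables are therefore a description. Over the 7 other tables, the lowest mean ranks of runs of 500 kb or more were 0.004 at chr5:108800001-110100000, a stretch of 18 genes with vomeronasal receptors Vmn2r13, Vmn2r16 and Vmn2r17, 0.007 at chr12:114050001-114550000, where 41 variable segments of the immunoglobulin heavy chain lie, and 0.008 at chr6:132450001-133100000, with the salivary proline-rich protein genes Prp2 and Prh1. In the run on chromosome 5, 2.26 to 14.2% of cells had the bins replicated in the 7 other tables. The highest were 0.483 at chr4:26050001-26600000 with Manea, an endomannosidase, 0.468 at chr4:89450001-90000000 with Dmrta1, a DMRT family factor, and 0.449 at chr12:42300001-43000000 without a gene. The Manea run had mean ranks of 0.10 to 0.22 at the stages and 0.80 with α-amanitin, 0.35 with DRB and 0.37 with Kdm5b, and the Dmrta1 run 0.65, 0.63 and 0.49. The Dmrta1 run was replicated in 37.7% of cells from untreated 2-cell embryos, a value that took part in the choice. In cells from treated embryos it was replicated in 57.8%, 68.1% and 55%. The run with the highest rank in parthenotes (0.825) lay at chr5:16600001-17700000 and reached into Hgf, a growth factor for liver and other epithelia (1 of 2 bins), and Sema3c, a guidance molecule (3 of 4 bins). Chromosome 15 held the runs with the highest rank in IVF zygotes (0.761, chr15:28950001-29750000), maternal pronuclei (0.784, chr15:15200001-15850000) and with Kdm5b (0.546, chr15:17700001-18700000), none of which contained a protein-coding gene. On chromosome 15, 37.5% of the 283 members were late in IVF zygotes, 39.9% in parthenotes and 41.7% in maternal pronuclei, the lowest values of any chromosome with 40 or more members in these tables, but 72.4% in paternal pronuclei and 95.8% with DRB. With α-amanitin the lowest values were on chromosomes 12 (36.4%), 16 (36.9%) and 4 (40%).

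At the edges of runs the share of cells rose gradually rather than in a step. Around the 179 runs of 500 kb or more, the mean share in DRB-treated embryos was 29.4% at 500 kb inside the outermost member, 35.4% in the outermost member itself, 38.2% in the adjacent bin outside, 45.1% at 250 kb and 50.2% at 500 kb outside. In parthenotes the same positions gave 41.6%, 44.8%, 46.6%, 50.3% and 53.1%. The increase from 500 kb inside to 500 kb outside was present in all 14 tables, with the widest span in morula cells (14.3 to 40.5%). Farther out the change was smaller, with 51.4% at 1000 kb in DRB-treated embryos and 44.3% in morula cells. The smoothing over 15 bins spans 750 kb, and its part in the slope was not tested.

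**Figure D4:**
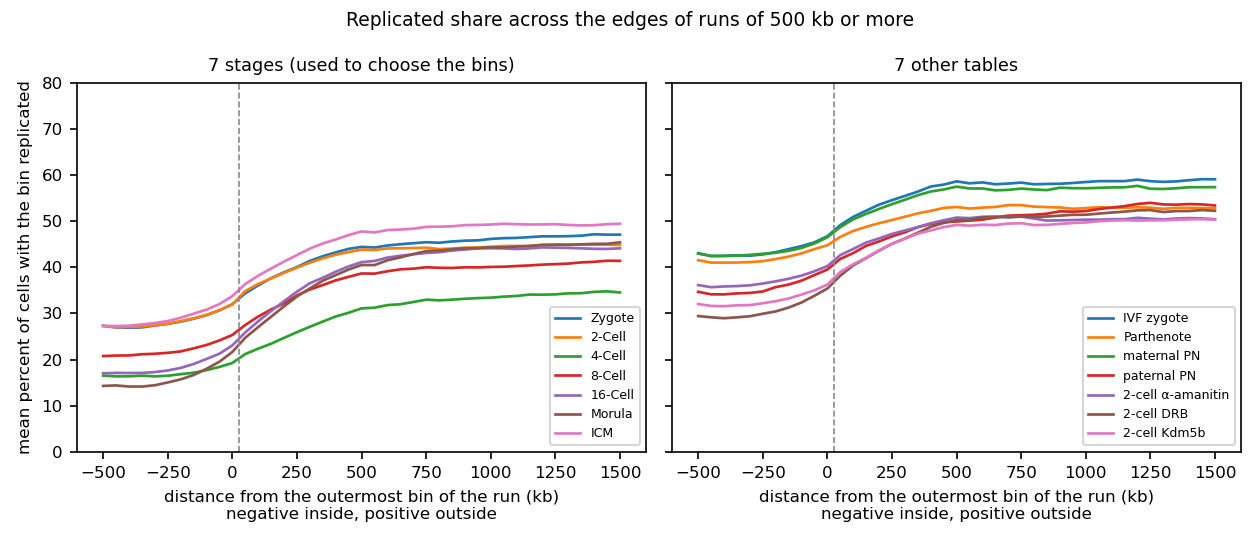
Mean percent of cells in which a bin was replicated (y axis) by distance in kb from the outermost bin of runs of 500 kb or more (x axis, negative inside the run, dashed line at its border), for the 7 stages on the left and the 7 other tables on the right. All 14 curves rise across the border, from 14.3 to 40.5% between 500 kb inside and 500 kb outside in morula cells and from 41.6 to 53.1% in parthenotes. At the 7 stages the rise follows from the choice of bins.

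Within single cells, the lag of the members was taken as the replication score of the cell minus the percent of its called members that were replicated. The median lag was 21.8 percentage points in zygotes (quartiles 12.7 to 42), 22 in 2-cell, 23.1 in 4-cell, 23.7 in 8-cell, 45.2 in 16-cell, 47.2 in morula and 27.4 in ICM cells. In the other tables it was 13.3 in IVF zygotes, 8.89 in parthenotes, 14 and 19.9 in maternal and paternal pronuclei, 12 with α-amanitin, 27.4 with DRB and 18.1 with Kdm5b. The spread between cells was wide, with SDs from 9.56 (maternal pronuclei) to 20.5 points (16-cell). Cells in which the members were ahead of the rest of the genome were few in most groups, with 0 of 55 4-cell cells (which allows up to 5.45%), 0 of 47 morula cells (up to 6.38%) and 2 of 66 zygotes (3.03%, exact 95% interval 0.369 to 10.52%). They were most frequent in parthenotes, 12 of 57 (21.1%, 11.4 to 33.9%), and with α-amanitin, 8 of 42 (19%, 8.60 to 34.1%), against 7 of 63 in untreated 2-cell embryos (11.1%, 4.59 to 21.6%) and 1 of 67 with DRB (1.49%, 0.0378 to 8.04%). The zygote and untreated 2-cell tables took part in the choice of members, and no difference between groups was tested. Of the 7 cells from untreated 2-cell embryos, 3 were collected at 33 h, earlier than any treated cell. Of the 12 parthenotes, 6 came from the 8 cells collected at 10 h 30 min, where the median lag was −2.87 points. Without these 8 cells, members were late in 73.8% of cases in parthenotes and the median lag was 11.5 points. Leaving them out was decided after seeing the data, and parthenotes of 6.5 h, with a median lag of 4.31 points, were kept.

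**Figure D5:**
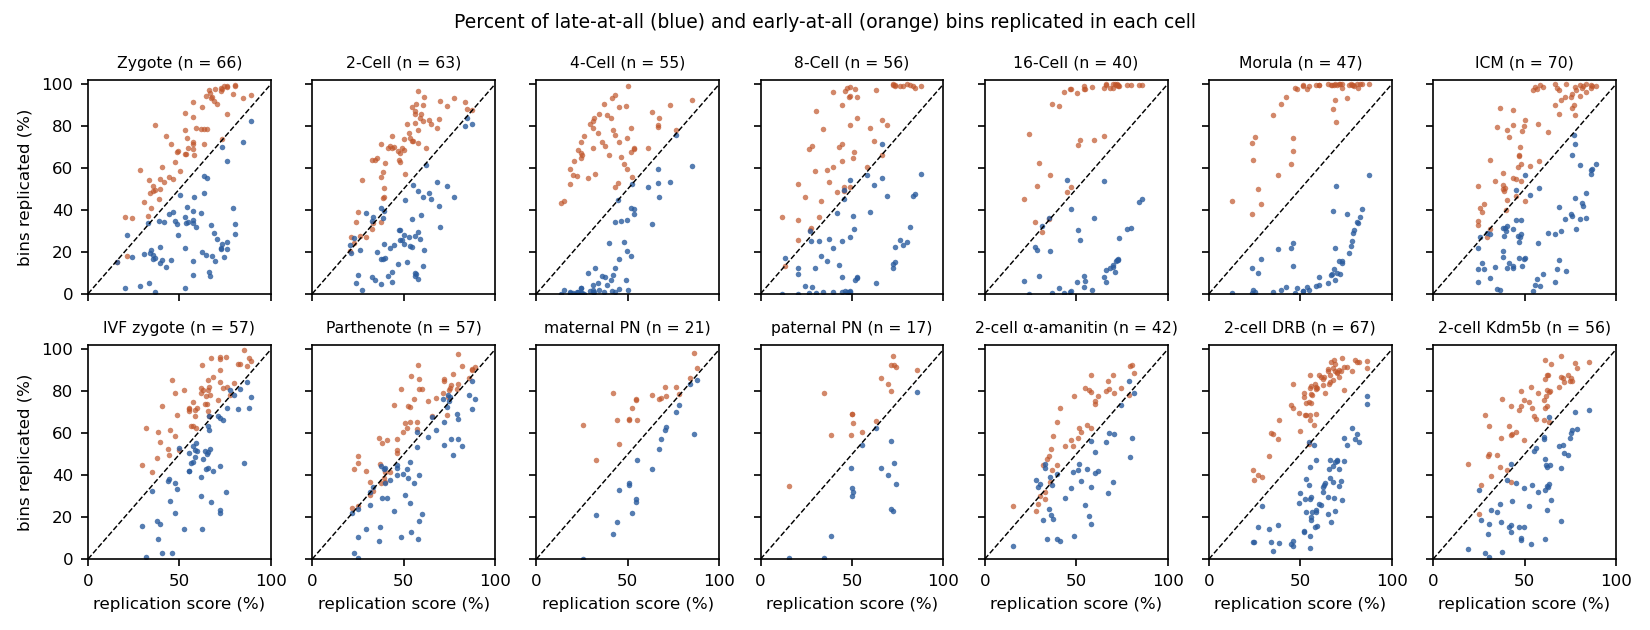
Each point is a cell, placed by its replication score in percent (x axis) and the percent of its called bins that were replicated (y axis), in blue for bins late and in orange for bins early at all 7 stages. On the dashed line a set keeps pace with the genome. Blue points lie below the line in nearly all cells, in all 47 morula cells and in 45 of 57 parthenotes.

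Late in S phase, members were still largely unreplicated in some groups and not in others, in cells whose scores were not matched between groups. In cells with a score of 70 to 90%, the median percent of members replicated was 27.2% in zygotes (14 cells), 65.8% in 2-cell (6), 60.9% in 4-cell (3), 24.9% in 8-cell (11), 16.8% in 16-cell (11), 27% in morula (16) and 44.5% in ICM cells (20). Over the same cells, bins early at all stages were replicated to 89.8 to 99.9%. The median score within this class was 75.9% in zygotes, 80.6% in 2-cell, 76.2% in 4-cell and 78.1% in 8-cell cells. It was 77.8% in morula and 79.2% in ICM cells, and lowest among the stages in 16-cell cells. The part of these scores in the percent of members replicated was not tested. Natural zygotes of this class stood at 27.2% (17.6 to 82.5%) and 16 IVF zygotes at 70.1% (22 to 84.5%), with ranges that overlap. Parthenotes had 71.4% (17 cells, 49.7 to 84.8%). The tables of the natural stages took part in the choice of members, so that their low values follow in part from the selection. Among 2-cell embryos of this class, α-amanitin gave 59.6% (7 cells), DRB 54.6% (15 cells) and Kdm5b 60.2% (9 cells). In cells with a score under 30%, members were replicated to 0.799% in 15 4-cell and 2.00% in 7 morula cells at the median, but to 20.2% in 8 2-cell and 15.4% in 5 zygote cells.

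Long runs were often replicated in part. Counted over runs of 500 kb or more and cells, a run was entirely unreplicated in 52.1% of cases in zygotes, 51.9% in 2-cell, 70.4% in 4-cell, 61.9% in 8-cell, 63.3% in 16-cell, 65.6% in morula and 49.8% in ICM cells. It was replicated in part in 20.4 to 34.5% of cases at these stages and in full in 7.44 to 15.9%. In the 7 other tables a run was entirely unreplicated in 36% (IVF zygotes) to 48% (DRB) and fully replicated in 16.7% (DRB) to 29.1% (maternal pronuclei) of cases. For runs early at all stages, full replication was the most frequent state in all 14 tables, at 49 to 79.8%. Partial replication was not particular to members. Early runs were replicated in part in 14.1% (morula) to 34.3% (4-cell) of cases at the 7 stages. In 4-cell embryos this was above the 20.4% of runs of members, and in morula cells below their 26.9%. The cell-to-cell spread of a bin, given by the variability score (1 minus the distance of the share from 0.5, divided by 0.5), had medians of 0.273 in morula cells to 0.603 in 2-cell embryos for members, below the 0.468 to 0.794 of all ranked bins at all 7 stages. In IVF zygotes, parthenotes and maternal pronuclei, where members were replicated in 44.6 to 47.6% of cells, their median score (0.842, 0.842 and 0.857) was above that of all bins (0.667, 0.807 and 0.737). The score follows directly from the share and adds no independent evidence.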

How the data were processed

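Single-cell Repli-seq was read from the tables of replication states deposited by the authors, a binary score (replicated or not replicated) for each of 49264 bins of 50 kb and each of 733 cells, on mm10 (GRCm38). Alignment by the authors used Bowtie2 (2.3.5), read filters SAMtools (1.9; mapping quality 20 or more, no duplicates) and counting in bins bedtools (2.29.0). Counts were scaled to the library size, set relative to each bin's stage average, masked (lowest 5% and highest 1% of bins), scaled per cell, smoothed with a running median over 15 bins, segmented and split into 2 states. The deposited other values (states) carry no read counts and read depth per cell was not analysed here, so that precision is given by the number of cells (17 to 70 per group). Neighbouring bins share states through smoothing and segmentation.

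Cells with a replication score of 10 to 90% were used (714). Of these, 88 were listed in the quality table of the study but not passed, and 219 were not listed there. For each bin, the replicated share of cells was ranked within each table by percentile, with ties averaged. Members had a rank of 0.3 or less at all 7 stages. The members and the lists of genes were chosen with earlier results of these data known. Each group is 1 sample, so that no test was made. Exact (Clopper-Pearson) 95% intervals and the upper limit for 0 (3 counts) cover counting error only. Genes were named as the longest in the longest runs, the runs with extreme ranks and fixed lists. Python 3.11.15, NumPy 2.4.6, pandas 2.3.3 and SciPy 1.17.1 were used, and scripts were tested on simulated data. Alternatives were the rank limits 0.2 and 0.4, scores of 20 to 80%, cells of the quality table, interval RT, 80% called cells, leaving out a stage, values within single chromosomes and collection hours, and, chosen after seeing the data, parthenotes without those of 10 h 30 min.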

Additional observations from a re-analysis of the deposited data

How the results depend on the processing

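A count or percent was taken as moved when it changed by more than 1.5 times, and a lag or GC content when it changed by more than 1 SD (between cells or member bins). Of 345 values recomputed under an alternative, 331 stayed within these limits, 14 moved and 0 changed direction. This tally is no measure of stability, because part of it was fixed in advance. Requiring states in 80% of cells of every stage gave the same 5008 members, and counts have no direction to change. The limit for lags is also wide. Without cells of 72 h and 77 h the 8-cell lag rose from 23.7 to 33.3 points, within the SD of 19.6 points. The lag in parthenotes rose from 8.89 to 14.2 points with a rank limit of 0.2, more than 1.5 times but within the SD of 13.2 points. With a rank limit of 0.2 there were 2404 members in 253 runs, the longest run was 2.60 Mb and 3.54% of protein-coding genes lay in members, and with a limit of 0.4 there were 7892 members. Within the lowest chromosome, the percent of members late was 36.4% with α-amanitin, 37.5% in IVF zygotes, 39.9% in parthenotes, 41.7% in maternal and 54.2% in paternal pronuclei. Within the lowest collection hour it was 45% with Kdm5b, 41.6% with α-amanitin, 39.2% in IVF zygotes and 30.3% in parthenotes. The cause was not tested. Restricting to cells passed by the quality table, where they are listed, left 626 cells and 5176 members, 4607 of them among the 5008. No paired analysis was possible because no result comes from a test and the labels do not say which maternal and paternal pronuclei came from the same zygote. The number of cells, 17 to 70 per group, limits every share.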

Other observations

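Of the cells with states, 19 had a replication score outside 10 to 90% and entered no comparison. In the 15 cells above 90% (90.03 to 99.7%), members were replicated to between 65.7 and 99.0% (median 88.5%), below the score of the cell in all 15, and made up 11.5 to 69.9% (median 22.9%) of the bins not yet replicated. In the 4 cells below 10% (7.02 to 9.60%), members were replicated to 0 to 0.01997%, whereas 22.3 to 36.8% of the bins early at all stages were.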
